A study of Homo sapiens with 6 samples.

Results

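The human genome assembly holds, beside the assembled chromosomes, many separate sequences called contigs. Nascent DNA peaks on these contigs were examined in control and ERCC6L2-/- cells. A peak was a member where its sequence name was not that of chromosomes 1 to 22, X, Y or M, a rule that used no measured value. The control consensus list held 579 such peaks among 10285, which is 5.63% (95% Wilson interval 5.20 to 6.09%), and the ERCC6L2-/- list held 546 among 8555. Together these were 1125 of 18840 peaks, on 236 contigs.

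The study compared newly replicated DNA in U2OS cells, a human osteosarcoma cell line, with and without ERCC6L2, a SNF2-family protein. Control cells were labelled wild type. The ERCC6L2-/- lines of the study were clonal CRISPR/Cas9 knockouts established from single cells, and which clone or clones were sequenced here is not stated. A difference between genotypes therefore cannot be told apart from a difference between clones. All cells of both groups received the thymidine analogue BrdU for 2 h with no other treatment, BrdU-labelled fragments were immunoprecipitated and sequenced, and each group had 3 samples. The peaks of the 3 samples were merged into 1 consensus list per genotype before deposit, so the lists hold no spread between samples, no test between genotypes was possible, and every interval below covers counting error only.

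The contigs were of 4 kinds. Unplaced contigs are human sequence whose chromosome is unknown, and random contigs have a known chromosome but no known place on it. Alternate contigs give another haplotype of a locus that the chromosome already shows, and fix contigs are corrected versions of chromosomal sequence issued as patches. Unplaced and random contigs come largely from the repetitive DNA that is hard to assemble, including the satellites around centromeres, on acrocentric short arms and in pericentromeric heterochromatin, and ribosomal DNA. A read from such a repeat can match many places, so a peak there may stand for sequence at other places.

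The sequences under the peaks showed what kinds of DNA these contigs carried. Each run below is 200 bases from the middle of a named peak, read 5′ to 3′ on the forward strand of the contig in GRCh38. The first pair comes from the widest peak on a random contig, at chr22_KI270736v1_random:103072-103271 and present in both lists, and from the widest peak on a random contig that only the control list held, at chr17_KI270729v1_random:217418-217617. Capitals mark GGAAT, the reverse complement of ATTCC, the simple repeat of human satellites 2 and 3.
KI270736 peak of both lists: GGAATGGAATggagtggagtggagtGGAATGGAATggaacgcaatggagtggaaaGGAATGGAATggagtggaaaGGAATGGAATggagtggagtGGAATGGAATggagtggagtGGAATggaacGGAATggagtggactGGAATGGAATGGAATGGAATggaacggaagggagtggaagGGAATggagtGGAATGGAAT
KI270729 control-only peak: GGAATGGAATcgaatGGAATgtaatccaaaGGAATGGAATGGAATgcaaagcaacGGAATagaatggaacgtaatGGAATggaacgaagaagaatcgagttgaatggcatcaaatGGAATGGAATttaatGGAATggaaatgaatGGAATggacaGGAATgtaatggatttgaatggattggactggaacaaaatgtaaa
The repeat filled 47.5% of the first window and 32.5% of the second.

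The next windows come from peaks that only the ERCC6L2-/- list held on 2 other random contigs. The window at chr2_KI270715v1_random:73213-73412 is alpha-satellite DNA, the repeat of human centromeres, and capitals mark the core of its CENP-B box, the binding site of the centromere protein CENP-B. The window at chr14_GL000225v1_random:117194-117393 repeats with a period of 68 bases, and capitals mark each base equal to the base 68 positions before it.
KI270715 knockout-only peak: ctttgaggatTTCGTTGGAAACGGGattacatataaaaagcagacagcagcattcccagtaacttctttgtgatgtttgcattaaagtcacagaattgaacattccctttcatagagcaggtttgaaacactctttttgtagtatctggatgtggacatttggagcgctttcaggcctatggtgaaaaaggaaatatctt
GL000225 knockout-only peak: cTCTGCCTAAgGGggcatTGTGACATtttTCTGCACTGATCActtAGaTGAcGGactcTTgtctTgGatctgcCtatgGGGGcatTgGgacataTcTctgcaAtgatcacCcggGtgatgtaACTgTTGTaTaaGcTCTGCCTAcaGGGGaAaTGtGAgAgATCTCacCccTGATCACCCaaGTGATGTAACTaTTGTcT
In the second window 113 of 200 bases were in capitals, and bases near its left end were compared with sequence outside the window.

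Peaks on alternate contigs looked different, with short tandem units rich in C or G. The windows are chr12_KI270836v1_alt:50942-51141 from the widest shared peak, with a period of 17 bases, and chr7_KI270807v1_alt:37059-37258 from the widest control-only peak, with a period of 32 bases. They are followed by chr4_KI270925v1_alt:198188-198387 from the widest knockout-only peak, with a period of 16 bases, and chr1_KI270762v1_alt:213176-213375 from the widest knockout-only peak of the contig that carries TTC34, with a period of 40 bases. Capitals again mark bases equal to the base one period earlier.
KI270836 peak of both lists: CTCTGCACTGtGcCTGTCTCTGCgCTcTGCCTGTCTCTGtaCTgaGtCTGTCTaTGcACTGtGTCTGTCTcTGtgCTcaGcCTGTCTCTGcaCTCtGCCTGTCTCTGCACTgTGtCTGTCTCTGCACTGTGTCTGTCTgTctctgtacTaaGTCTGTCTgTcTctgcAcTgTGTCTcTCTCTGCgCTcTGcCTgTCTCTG
KI270807 control-only peak: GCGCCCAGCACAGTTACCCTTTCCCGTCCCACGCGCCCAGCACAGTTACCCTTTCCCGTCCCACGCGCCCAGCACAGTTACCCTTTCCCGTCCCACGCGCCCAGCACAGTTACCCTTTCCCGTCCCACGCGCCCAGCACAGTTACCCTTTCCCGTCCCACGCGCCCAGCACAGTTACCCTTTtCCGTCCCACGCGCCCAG
KI270925 knockout-only peak: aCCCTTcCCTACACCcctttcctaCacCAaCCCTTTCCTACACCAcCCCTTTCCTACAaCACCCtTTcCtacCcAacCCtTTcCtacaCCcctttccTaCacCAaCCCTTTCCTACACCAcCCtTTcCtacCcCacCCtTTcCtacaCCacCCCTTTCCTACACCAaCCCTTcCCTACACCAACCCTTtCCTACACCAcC
KI270762 knockout-only peak: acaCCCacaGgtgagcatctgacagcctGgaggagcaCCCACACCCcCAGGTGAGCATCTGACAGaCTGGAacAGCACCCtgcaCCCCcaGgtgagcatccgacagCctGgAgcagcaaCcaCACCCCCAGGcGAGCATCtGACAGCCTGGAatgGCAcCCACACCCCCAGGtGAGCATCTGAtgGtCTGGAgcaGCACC
The control-only window of chr7_KI270807v1_alt repeated almost without change, with 199 of 200 bases equal to the base 32 positions before.

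A last pair shows GC-rich sequence in knockout-only peaks, at chr14_GL000225v1_random:78971-79170 and, inside a ribosomal RNA gene, at chr22_KI270733v1_random:173159-173358. Capitals mark the dinucleotide CG.
GL000225 GC-rich knockout-only peak: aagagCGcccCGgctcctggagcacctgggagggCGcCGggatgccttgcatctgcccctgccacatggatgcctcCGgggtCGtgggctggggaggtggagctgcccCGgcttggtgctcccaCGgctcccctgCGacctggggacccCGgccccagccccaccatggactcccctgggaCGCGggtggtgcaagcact
KI270733 ribosomal knockout-only peak: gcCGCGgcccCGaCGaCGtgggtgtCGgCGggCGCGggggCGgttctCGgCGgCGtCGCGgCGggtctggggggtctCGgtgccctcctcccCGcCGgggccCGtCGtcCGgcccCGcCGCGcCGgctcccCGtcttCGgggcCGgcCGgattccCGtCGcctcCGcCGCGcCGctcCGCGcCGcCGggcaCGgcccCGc

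Peaks on contigs were found in both lists more often than peaks on chromosomes. A peak was called shared where it had at least 1 base in a peak of the other list, and control-only or knockout-only where it had none. Of the 579 control peaks, 117 were control-only, which is 20.2% (interval 17.1 to 23.7%), beside 32.8% of all control peaks and 33.5% (32.6 to 34.5%) of those on chromosomes. Of the 546 ERCC6L2-/- peaks, 67 were knockout-only, which is 12.3% (9.78 to 15.3%), beside 18.9% of all ERCC6L2-/- peaks and 19.3% (18.5 to 20.2%) of those on chromosomes. Unplaced contigs had the smallest shares and alternate contigs the largest in both lists. Control-only peaks were 12 of 116 on unplaced contigs (10.3%, 6.02 to 17.2%), 24 of 131 on random contigs (18.3%, 12.6 to 25.8%), 60 of 244 on alternate contigs (24.6%, 19.6 to 30.4%) and 21 of 88 on fix contigs (23.9%, 16.2 to 33.7%). Knockout-only peaks were 6 of 117 on unplaced contigs (5.13%, 2.37 to 10.7%), 16 of 131 on random contigs (12.2%, 7.66 to 18.9%), 39 of 224 on alternate contigs (17.4%, 13.0 to 22.9%) and 6 of 74 on fix contigs (8.11%, 3.77 to 16.6%). The order of unplaced below alternate contigs was the same in both genotypes, and the intervals of neighbouring kinds overlapped.

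**Figure D1:**
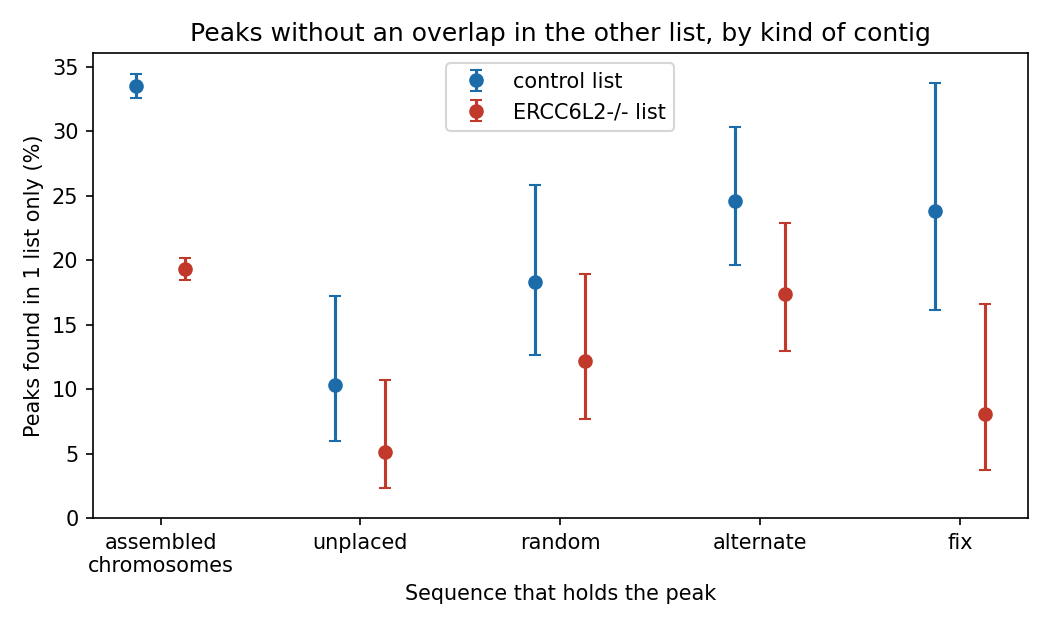
Share of peaks with no base in a peak of the other list (percent, vertical axis) for assembled chromosomes and each kind of contig, with separate points for the control and ERCC6L2-/- lists and bars for 95% Wilson intervals, which cover counting error only. Unplaced contigs lie lowest in both lists, at 10.3% and 5.13%, and chromosomes lie highest, at 33.5% and 19.3%.

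The bases covered by peaks gave a like picture. Control peaks covered 1.40 Mb of contigs and ERCC6L2-/- peaks 1.33 Mb, which was 12.03% and 12.55% of all bases under peaks in the respective list. Of the contig bases covered in either list, 80.9% were covered in both. This share was 91.3% on unplaced, 84.8% on random, 75.6% on fix and 64.4% on alternate contigs, beside 61.8% on chromosomes. All 45 unplaced contigs that had a peak had one in both lists. Of the 29 random contigs with a peak, 4 had one only in the control list and 3 only in the ERCC6L2-/- list.

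Peaks were far denser on unplaced and random contigs than on chromosomes. Per Mb of known sequence, unplaced contigs held 26.80 control and 27.03 ERCC6L2-/- peaks, and random contigs held 19.7 in each list. Alternate contigs held 2.25 and 2.08, beside 3.30 and 2.73 on the chromosomes. In covered bases the contrast was larger, with 9.71% of unplaced and 8.29% of random sequence under control peaks, 0.285% of alternate sequence and 0.349% of chromosomes. The corresponding ERCC6L2-/- values were 9.33%, 7.88%, 0.279% and 0.317%. Fix contigs are left out of these densities because their sequence was not used here.

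Width separated the kinds of contig in the same way. The median width of control peaks was 1462.5 bases on unplaced, 2042 on random, 896 on alternate and 885.5 on fix contigs, beside 684 on chromosomes. In ERCC6L2-/- cells the medians were 1385, 1861, 1002.5, 943.5 and 716 bases in the same order. Peaks of at least 3000 bases made up 97 of 579 control peaks on contigs (16.8%) and 98 of 546 ERCC6L2-/- peaks (17.9%), beside 3.44% and 4.26% on chromosomes. These wide peaks were nearly all shared, with 2 control-only and 3 knockout-only, beside 7 of 334 and 26 of 341 among wide peaks on chromosomes. ATTCC satellite made up at least 52 of the 97 in control and 49 of the 98 in ERCC6L2-/- cells. Wide peaks whose sequence was not used, such as those on fix contigs, were counted as not ATTCC satellite.

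**Figure D2:**
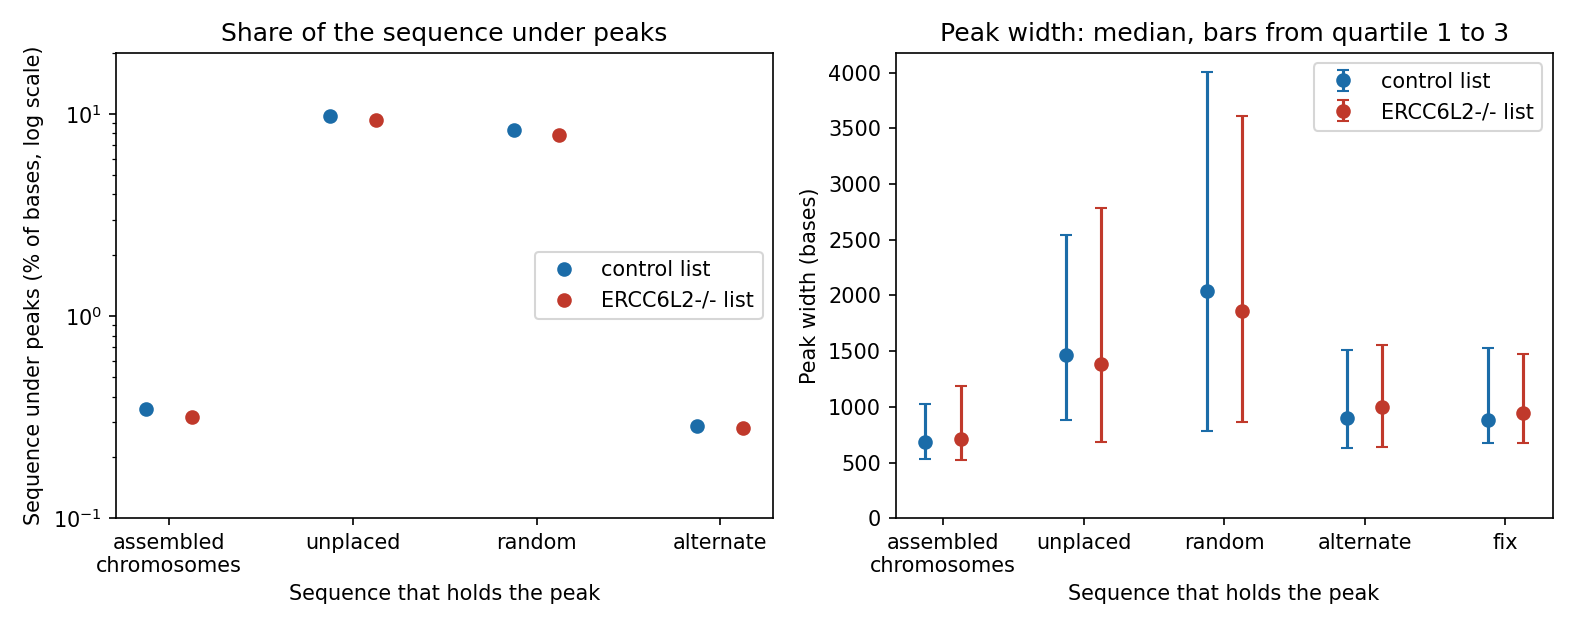
Left, bases under peaks as a percent of known sequence (log axis), and right, peak width in bases (points at the median, bars from the first to the third quartile), by kind of contig for the control and ERCC6L2-/- lists. Unplaced and random contigs stand above alternate contigs and chromosomes in both panels, and random contigs have the widest peaks, with medians of 2042 and 1861 bases.

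Each peak carries a deposited score on the −log10 p scale. The highest finite score was 310.6, and the other scores are written as infinite, here called the ceiling. Most shared peaks on unplaced and random contigs were at the ceiling, 93.3% and 93.5% in control and 91.0% and 87.0% in ERCC6L2-/- cells, beside 83.9% and 68.2% on chromosomes. Shared peaks on alternate contigs were at the ceiling in 80.4% of control and 68.6% of ERCC6L2-/- peaks. Control-only peaks were there less often, 5 of 12 on unplaced, 7 of 24 on random, 21 of 60 on alternate and 6 of 21 on fix contigs. Together these were 33.3% of control-only contig peaks, beside 45.8% of control-only peaks on chromosomes. Knockout-only peaks were at the ceiling in 10 of 16 cases on random contigs and 3 of 6 on unplaced contigs, but in 10 of 39 on alternate and 0 of 6 on fix contigs. Together these were 34.3% of knockout-only contig peaks, near the 30.6% of knockout-only peaks on chromosomes. Of the 10 on random contigs, 7 lay on chr14_GL000225v1_random alone.

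On unplaced and random contigs a single control peak was sometimes met by several ERCC6L2-/- peaks. This held for 18 of 462 shared control peaks on contigs (3.90%), among them 7 of 104 on unplaced and 9 of 107 on random contigs. In the other direction 3 of 479 shared ERCC6L2-/- peaks (0.626%) met more than 1 control peak. On chromosomes the shares were 0.744% and 0.573%. A case was chr17_KI270730v1_random, where the control peak at 22553 to 30280 met ERCC6L2-/- peaks at 23490 to 26595 and 28783 to 30224. The control peak at 7622 to 13182 of the same contig likewise met ERCC6L2-/- peaks at 7625 to 10828 and 11131 to 15408.

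Few contigs held many of the peaks. The 6 contigs with most peaks held 205 of 1125 (18.2%), and 32 contigs held 1 peak each. The contig with most was chr17_KI270729v1_random, with 30 control and 29 ERCC6L2-/- peaks that covered 50.5% and 45.6% of it. It repeats in units of 5 bases, and 18 of the 30 and 16 of the 29 peaks were dense enough in ATTCC to count as ATTCC satellite, defined further on. Of its peaks, 4 were control-only and 0 knockout-only. The widest of those 4 lay at 215752 to 219283 and spanned 3532 bases. The related contig chr17_KI270730v1_random carried 13 control and 14 ERCC6L2-/- peaks, all of them ATTCC satellite with 1 list-only peak in each list.

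By the chromosome in their name, random contigs of chromosomes 17, 22 and 14 held most peaks of their kind. Chromosome 17 had 44 control and 43 ERCC6L2-/- peaks, chromosome 22 had 30 and 35, and chromosome 14 had 28 and 30. Chromosomes 14 and 22 are acrocentric, with short arms made of satellite and ribosomal DNA. Random contigs of chromosome 1 differed more between the lists, with 17 control and 8 ERCC6L2-/- peaks, of which 10 and 1 were list-only. Among them chr1_KI270712v1_random had 7 and 4 peaks, with 4 control-only and 1 knockout-only, and none of its peaks was ATTCC satellite. On random contigs of chromosome 14 the list-only counts lay the other way, 6 control-only and 9 knockout-only, and 7 of the 9 were on 1 contig, described below.

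The unplaced contig chrUn_KI270442v1 changed in sequence along its length, and its peaks changed with it. From its start to base 96939 it held 7 control peaks of ATTCC satellite, the widest of 28626 bases at 22410 to 51035, and all 7 were shared. Farther on, its peaks were 386 to 2021 bases wide in the control list and none of them was ATTCC satellite. The 2 control-only peaks and the 2 knockout-only peaks of this contig all lay there. They included the widest control-only peak on any unplaced contig, at 137708 to 139728, whose sequence repeats at the period of alpha-satellite with 56.1% identity. The widest knockout-only peak on an unplaced contig lay elsewhere, at chrUn_KI270743v1:150764-151372.

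The widest contig peaks in either list were satellite peaks of almost the same extent in both genotypes. On chr22_KI270736v1_random the control peak spanned 110620 bases, from 47814 to 158433, and the ERCC6L2-/- peak 110730 bases, from 47807 to 158536. On chrUn_GL000216v2 the control peak of 31566 to 87230 spanned 55665 bases and was also shared. All 6 control and 6 ERCC6L2-/- peaks of chr22_KI270736v1_random were shared, at the ceiling and ATTCC satellite.

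**Figure D3:**
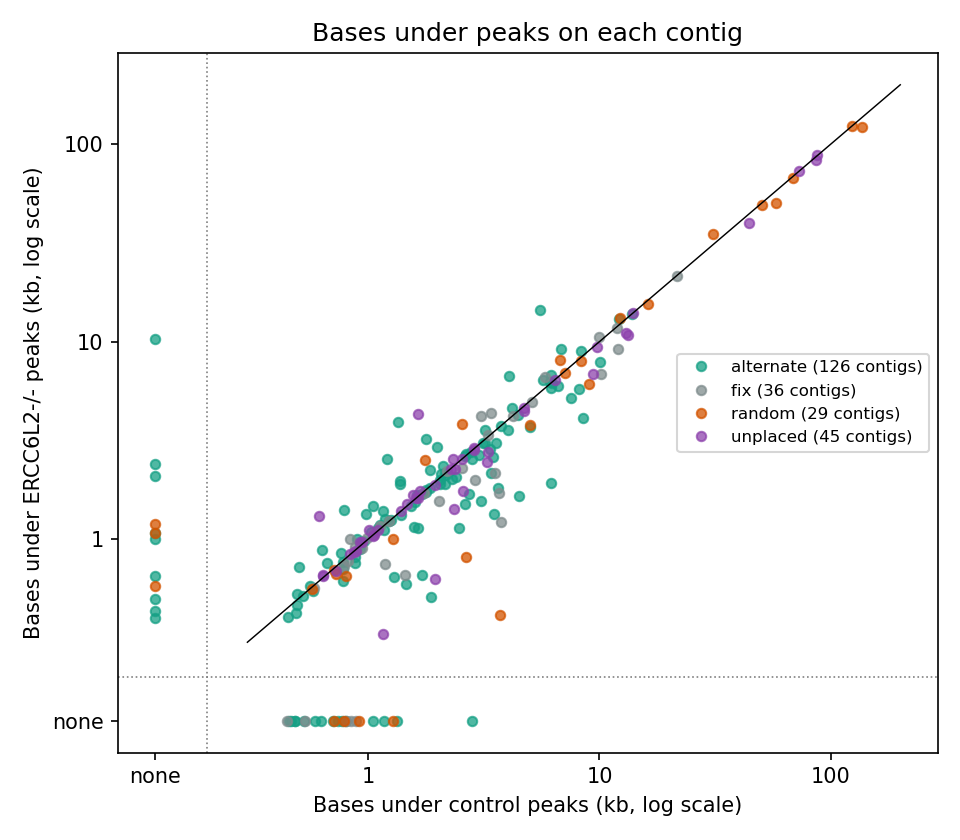
Bases under control peaks (horizontal, kb) against bases under ERCC6L2-/- peaks (vertical, kb) on log axes, with 1 point per contig coloured by kind, a line for equal coverage, and contigs without a peak in a list set apart at the edge marked none. The contigs with most covered bases lie close to the line, and chr4_KI270925v1_alt is the highest point at the left edge, with 0 control and 10256 ERCC6L2-/- bases.

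Sequence class was counted on the 474 control and 457 ERCC6L2-/- peaks whose contig is in the reference genome used. ATTCC satellite, taken as at least 5 copies of ATTCC per 100 bases on 1 strand, made up 27.9% of shared control peaks on unplaced contigs and 35.5% on random contigs. The ERCC6L2-/- values were 29.7% and 37.4%. On alternate contigs the shares were 4.12% and 4.09%, and on chromosomes 2.54% and 2.51%. Windows of 1000 bases tiled over the same sequences held this class in 7.34% of unplaced, 6.36% of random, 0.0289% of alternate and 0.0630% of chromosomal windows. Peaks differ in width from these windows, so the shares are set side by side as a description.

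The CENP-B box was searched on both strands as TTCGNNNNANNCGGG. It was found in 13 of 116 control and 12 of 117 ERCC6L2-/- peaks on unplaced contigs, in 1 of 131 and 3 of 131 on random contigs, and in 0 of 227 and 0 of 209 on alternate contigs, with intervals of up to 1.66% and 1.80%. Of the list-only contig peaks in the reference, 0 of 93 control-only peaks (interval up to 3.97%) and 2 of 60 knockout-only peaks (3.33%, 0.919 to 11.4%) held it, and the intervals overlapped. On random contigs these were 0 of 24 and 2 of 16. Windows of 1000 bases held it in 5.63% of unplaced, 5.51% of random, 0.0339% of alternate and 1.93% of chromosomal sequence. On chromosomes, 36.6% of knockout-only and 3.69% of control-only peaks held it. The box-carrying knockout-only peak of chr2_KI270715v1_random lay at 72343 to 74283 with 6 boxes in 1941 bases. A shared peak farther along this contig held 5 boxes in control and 4 in ERCC6L2-/- cells. Of the short sequence words of the knockout-only peak, defined further on, 90.7% also occurred on a chromosome. Chromosomal peaks of the control list held 80.6% of its words, and those of the ERCC6L2-/- list 81.9%. Which of these places its reads came from was not tested.

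Tandem repeats were the main feature of peaks on alternate contigs. A peak was called a tandem repeat where at least 60% of its bases equalled the base a fixed 2 to 500 positions before, a rule set after the sequences had been seen. Of shared peaks on alternate contigs, 123 of 170 control (72.4%) and 127 ERCC6L2-/- peaks (74.3%) met it, beside 46.6% and 50.5% on chromosomes. With satellites counted, many shared peaks on the other contigs met it too, 59.6% and 60.4% on unplaced and 56.1% and 59.1% on random contigs. Windows of 1000 bases met it in 1.48% of alternate, 1.35% of chromosomal, 22.3% of unplaced and 14.6% of random sequence. With ATTCC satellite, alpha-satellite and box-carrying peaks not counted as tandem, 138 of 227 control (60.8%) and 140 of 209 ERCC6L2-/- peaks (67.0%) on alternate contigs met it. The shares were 31.6% and 36.4% on chromosomes, 24.1% and 25.6% on unplaced and 22.1% and 21.4% on random contigs. The 138 and 140 peaks on alternate contigs had median periods of 28.5 and 32 bases. Periods of 10 to 100 bases, the range of minisatellites, were found in 83 and 88 of them. A period here is the distance of highest identity, which can be a multiple of a shorter repeat unit. Among list-only peaks of alternate contigs, satellites included, 27 of 57 in control and 25 of 38 in ERCC6L2-/- cells were tandem repeats. On chromosomes 23.4% of control-only and 38.3% of knockout-only peaks were.

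Purine tracts were less frequent in peaks on unplaced, random and alternate contigs than in peaks on chromosomes. An unbroken stretch of 30 or more purines, or of pyrimidines, lay in 14.7% of control peaks on unplaced, 15.3% on random and 10.1% on alternate contigs, beside 27.95% on chromosomes. The ERCC6L2-/- values were 14.5%, 14.5%, 7.66% and 19.2%. Windows of 1000 bases held such a stretch in 4.23%, 3.78%, 6.62% and 5.89% of cases in the same order. Among control-only peaks, 11 of 57 on alternate contigs held such a stretch (19.3%), beside 43.6% on chromosomes. The median GC content of control peaks was 43.4% on unplaced, 39.9% on random, 52.3% on alternate contigs and 48.9% on chromosomes. Knockout-only peaks on random contigs had a median of 48.7%, and control-only ones 41.5%. Of these 16 knockout-only peaks, 7 lay on the single contig chr14_GL000225v1_random.

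**Figure D4:**
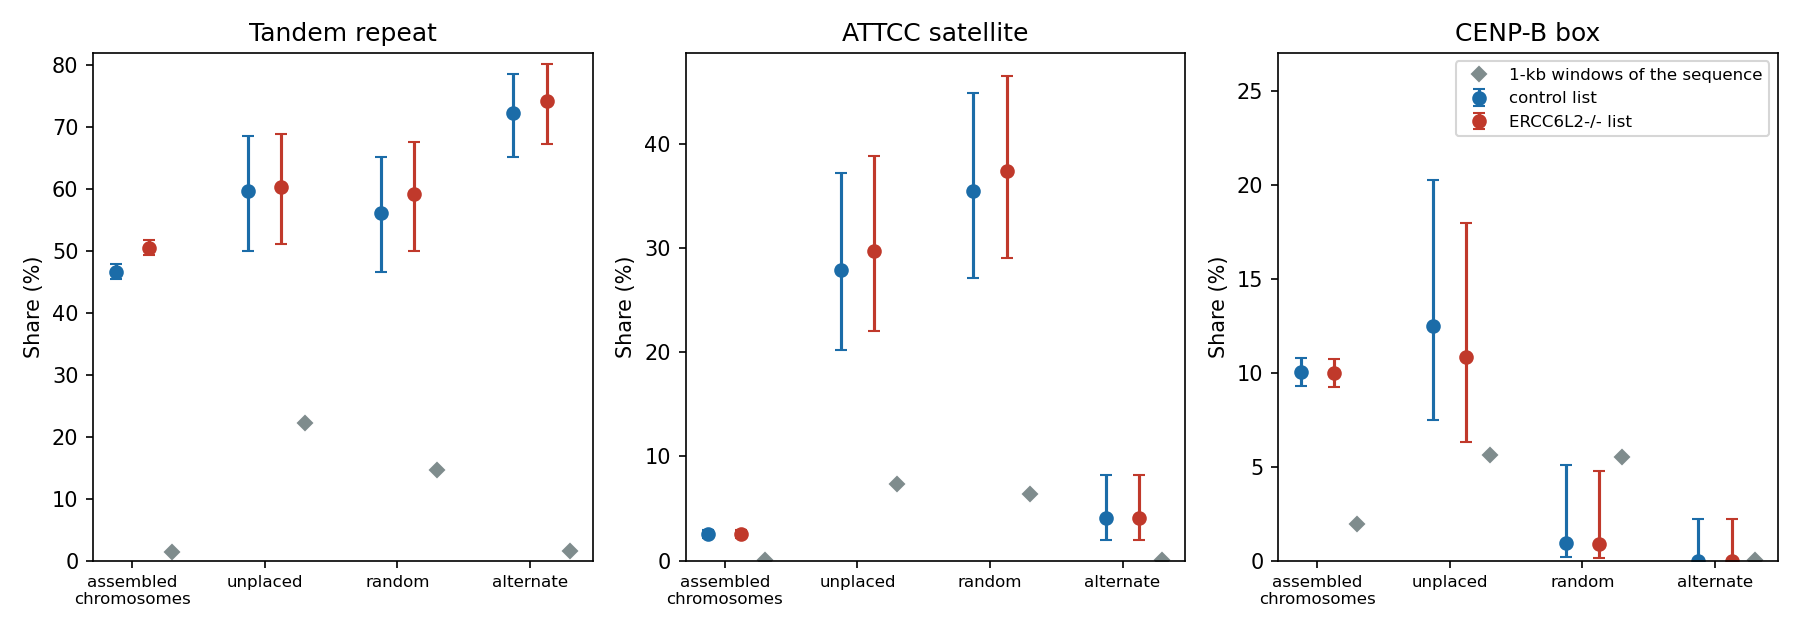
Share of shared peaks (percent, vertical axis) that are a tandem repeat, are ATTCC satellite or hold a CENP-B box, in 3 panels by kind of contig, with circles for the control and ERCC6L2-/- lists, bars for 95% Wilson intervals of counting error, and diamonds for windows of 1000 bases over the same sequences. ATTCC satellite stands highest on random contigs, at 35.5% and 37.4%, tandem repeats stand highest on alternate contigs, at 72.4% and 74.3%, and box shares on random contigs lie below those of the windows.

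The contig with most knockout-only peaks was chr14_GL000225v1_random, whose repeat has a period of 68 bases, the unit length of beta-satellite DNA. It held 22 control and 26 ERCC6L2-/- peaks, of which 2 were control-only and 7 knockout-only. All 7 knockout-only peaks were at the ceiling, and they were 328 to 1220 bases wide. They fell into GC-poorer repeat sequence and GC-rich sequence. The peaks at 6689 to 7016, 16992 to 17395, 116684 to 117903 and 118454 to 119470 had a GC content of 46.3 to 49.3%, and those at 51840 to 52681, 64910 to 65803 and 78757 to 79385 had 58.3%, 62.5% and 69.5%. The control-only peaks at 33269 to 33911 and 120560 to 120955 had a GC content of 46.3% and 48.2% and a period of 69 bases. The widest shared peak of this contig was ATTCC satellite, 10732 and 10736 bases in the 2 lists.

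Ribosomal DNA was looked at on 2 contigs chosen after the peak values had been seen. The unplaced contig chrUn_GL000220v1 carries the 45S ribosomal RNA gene RNA45SN5, the precursor of the 18S, 5.8S and 28S ribosomal RNAs, at 105424 to 118780 and a further, shorter copy at 149396 to 161802. The random contig chr22_KI270733v1_random carries RNA45SN4 at 122273 to 135645 and a further copy at 167355 to 179772. Each contig had 8 control and 10 ERCC6L2-/- peaks. Nearly all of their bases lay outside the gene copies, in intergenic spacer. On chr22_KI270733v1_random, peaks covered 31.8% of the spacer in control and 34.6% in ERCC6L2-/- cells, and 0.112% and 1.90% of the 45S copies. On chrUn_GL000220v1 they covered 34.6% and 29.1% of the spacer and 0% of the 45S copies in both lists. The 1 peak that lay wholly inside a 45S copy was the knockout-only peak of chr22_KI270733v1_random at 173056 to 173461, whose GC content was 80.0%. A control-only peak lay in the spacer of chrUn_GL000220v1 at 144639 to 145022. The other peaks of both contigs were shared, and several control peaks met a pair of ERCC6L2-/- peaks, such as the one at 119339 to 121253 of chrUn_GL000220v1.

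**Figure D5:**
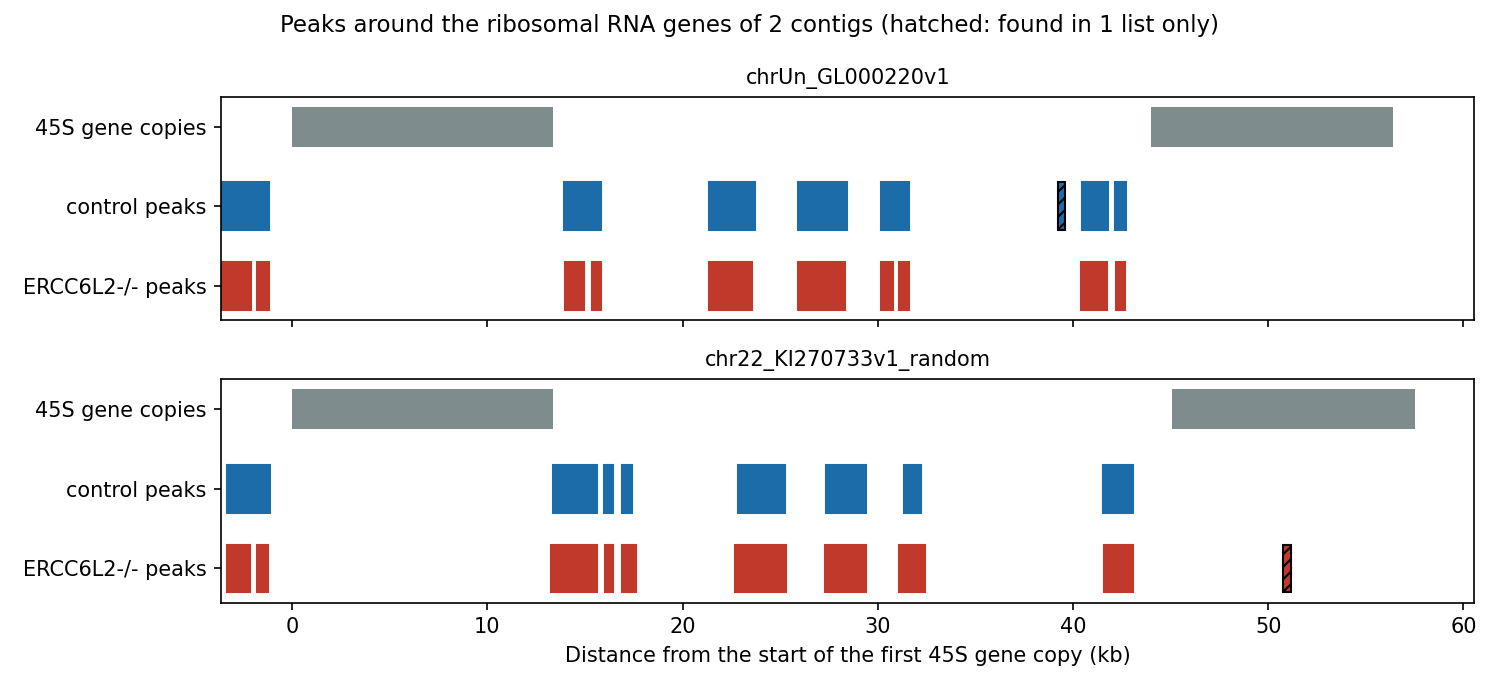
Peaks around the ribosomal RNA genes of chrUn_GL000220v1 (upper panel) and chr22_KI270733v1_random (lower panel) by distance from the start of the first 45S copy (kb), with grey blocks for 45S copies, control and ERCC6L2-/- peaks in separate rows, and hatching for peaks of 1 list only. Peaks of both genotypes lie at nearly the same distances in the spacer, of 30.615 kb in the upper and 31.709 kb in the lower panel, and the hatched ERCC6L2-/- peak inside a 45S copy stands alone.

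How far these peaks duplicate chromosomal sequence was measured with words of 50 bases. At least 50% of a peak's words also occurred on a chromosome for 82.4% of control and 79.4% of ERCC6L2-/- peaks on alternate contigs. The shares were 48.3% and 48.7% on unplaced and 26.7% and 24.4% on random contigs. Peaks on random contigs thus had the smallest share of copied sequence. Of the alternate-contig peaks that aligned to a chromosome, 172 of 173 control and 151 of 152 ERCC6L2-/- peaks aligned to the chromosome in the contig's name. On random contigs this held for only 22 of 48 control and 17 of 45 ERCC6L2-/- peaks that aligned.

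For alternate contigs the aligned place can be set against the lists. Shared control peaks had a control peak at their aligned place in 98 of 125 cases (78.4%). Of 57 control-only peaks, 48 aligned, and at their places both lists had a peak in 9 cases, only the control list in 9, only the ERCC6L2-/- list in 3 and neither list in 27. Of 38 knockout-only peaks, 27 aligned, with both lists in 8 cases, only the ERCC6L2-/- list in 5, only the control list in 2 and neither in 12. Neither list having a peak on the chromosomal version was the most frequent single case for list-only peaks of both genotypes. It held for most aligned control-only peaks but for only 12 of 27 aligned knockout-only peaks, so most of the latter did have a peak there.

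Genes were named from the aligned place on the chromosome. Of the peaks that aligned, 42.3% of control and 43.3% of ERCC6L2-/- peaks overlapped a gene there, and 25.3% and 23.1% a protein-coding gene. The kinds differed, with a protein-coding gene for 1.39% of aligned control peaks on unplaced, 16.7% on random and 37.6% on alternate contigs. Gene overlap of chromosomal peaks was not measured, so these shares have no level to be set beside. The widest control-only peak on alternate contigs, at chr7_KI270807v1_alt:35644-38674, was 3031 bases wide and aligned to an intron of PTPRN2, which encodes a receptor-type phosphatase-like protein of secretory vesicles. Both lists had a peak at that chromosomal place. A second control-only peak in a PTPRN2 intron lay at chr7_KI270805v1_alt:12671-13932, and there only the control list had a peak on the chromosome, as it did at the place of a control-only peak in the non-coding gene LINC01237.

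The contig chr5_KI270791v1_alt covers a part of the short arm of chromosome 5 and was covered by 6174 bases of control and 1919 bases of ERCC6L2-/- peaks. Its control-only peak at 185352 to 187667 overlapped an exon of CLPTM1L, a neighbour of the telomerase gene TERT, and repeated with a period of 29 bases at 90.5% identity. Its control-only peak at 91389 to 92307 lay in an intron of SLC6A3, the dopamine transporter gene. At the SLC6A3 place on the chromosome the control list also had a peak and the ERCC6L2-/- list had none, while at the CLPTM1L place both lists had one. Other control-only peaks aligned to introns of RPH3AL, a Rab effector in exocytosis, CROCC, which encodes the ciliary rootlet protein, and APOBEC3A, a cytidine deaminase. No peak of either list lay at the chromosomal places of these 3. At the chromosomal place of the control-only peak aligned to TMEM179 only the ERCC6L2-/- list had a peak.

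Knockout-only peaks on chr1_KI270762v1_alt aligned mostly to 1 gene. The contig held 3 control and 7 ERCC6L2-/- peaks covering 5551 and 14461 bases, and 4 of the 7 were knockout-only. Of these 4, 3 aligned to introns of TTC34 at 100% identity, where neither list had a peak, and all 4 repeated with a period of 40 bases. None of the 4 was at the ceiling, with scores of 116.4 to 175.9. Knockout-only peaks further aligned to an intron of SNTG2, a syntrophin gene, and to the long non-coding RNA gene LINC01060. Another aligned to an exon of MUC6, a gel-forming mucin whose coding sequence holds tandem repeats. That peak was itself not a tandem repeat by the rule above, with a highest identity of 38.2%, and its score was 78.7. At the SNTG2 place the ERCC6L2-/- list alone had a chromosomal peak, and at the MUC6 and LINC01060 places neither list had one.

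On chr4_KI270925v1_alt, from the long-arm end of chromosome 4, the control list had 0 peaks and the ERCC6L2-/- list had 3. Of these, 2 were 4868 and 4703 bases wide and lay side by side at 195854 to 200721 and 201154 to 205856. Both repeated with a period of 16 bases, at 79.2% and 80.9% identity, and 4.44% and 3.12% of their words occurred on a chromosome. The third, at 98799 to 99483, was found whole on chromosome 4, where both lists had a peak. Few words of the wide pair thus occurred unchanged on the assembled chromosomes. A diverged copy of such a repeat could share few words, and whether the chromosomes hold one was not tested.

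The alternate contig with most peaks, chr2_KI270894v1_alt, held 10 peaks in each list, of which 1 control and 1 ERCC6L2-/- peak were list-only. Its peaks were of 2 sorts. The control peaks at 95037 to 96143 and 105993 to 110640 repeated with a period of 26 bases and had a GC content of 67.0% and 65.8%. The 6 control peaks from 192362 to 210457 had a GC content of 36.1 to 38.9% and up to 5.85 copies of ATTCC per 100 bases. Both sorts were shared between genotypes, and its control-only peak lay at 86974 to 88301 and its knockout-only peak at 195172 to 195713.

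Unequal coverage was seen in both directions. Of the contigs not yet described, chrUn_KI270320v1 was covered by 1637 bases of control and 4276 bases of ERCC6L2-/- peaks, chr17_KI270862v1_alt by 4048 and 6709, and chr4_KI270786v1_alt by 1344 and 3912. In the other direction, on chr7_KI270807v1_alt control peaks covered 8470 and ERCC6L2-/- peaks 4095 bases. On chr14_KI270725v1_random the values were 3695 and 410 bases, and on chr1_KI270711v1_random, which holds sequence of the NBPF1 gene region, 2651 and 815 bases. The contigs chr15_KN538374v1_fix, chr1_KI270712v1_random and chr14_KI270846v1_alt each had 4 control-only peaks, as did chr17_KI270729v1_random. One of those on chr14_KI270846v1_alt aligned to IGHG4, an immunoglobulin heavy chain constant gene.

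Fix contigs were described by position only. Of 36 with a peak, 31 had one in both lists and 5 only in the control list. The contig chr15_KN538374v1_fix had 12 control and 8 ERCC6L2-/- peaks, with 4 control-only and 0 knockout-only. In contrast chr12_KZ208916v1_fix had 2 control-only and 3 knockout-only peaks, so its lists differed in both directions. The widest shared fix peak, on chrY_KN196487v1_fix, spanned 11011 bases in control and 10842 in ERCC6L2-/- cells. Its sequence was not examined, and whether its reads came from chromosome Y or from similar sequence elsewhere was not tested. The widest control-only and knockout-only fix peaks were 1557 bases on chr13_KN538371v1_fix and 2175 bases on chr11_KQ759759v1_fix.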

How the data were processed

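BrdU-labelled DNA was immunoprecipitated and sequenced from 3 control and 3 ERCC6L2-/- samples of U2OS cells. According to the study's methods, the authors checked reads with FastQC, trimmed them with TrimGalore, aligned them with Bowtie2 to hg38 patch 12, removed duplicates with Picard, called peaks with MACS2 in each sample and merged the 3 replicates with MSPC. BrdU-labelled E. coli DNA served as a spike. Tool versions, peak thresholds and the handling of reads that match several places are not given in the sources used here, and read depth is unknown from these files. The deposited lists give positions and a −log10 p-value score, which ran from 57.99 to 310.6 and was otherwise written as infinite.

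Contig peaks were taken by sequence name. The members, gene rules and sequence classes were chosen with earlier results of these data known. Overlap of 1 base made a peak shared, and the list-only peaks recomputed in this way were the same as in the unique lists that the authors deposited. Shares have 95% Wilson intervals (scipy 1.17.1), which cover counting error only. Peaks are not replicates, so no p-value was computed. Sequences came from GRCh38 (455 sequences; pysam 0.24.0, samtools 1.23.1). Peaks on the 47 contigs outside it, 105 control and 89 ERCC6L2-/- peaks, including all fix contigs, were counted but their sequence was not used. Alpha-satellite was taken as windows of 1000 bases with at least 50% identity at a distance of 171 bases. This found 1145 of 1975 chromosomal peaks with a CENP-B box (58.0%), and 40% identity found 99.5%, so alpha-satellite shares are undercounts and some alpha-satellite may remain among the tandem repeats counted without it. Peaks were aligned to chromosomes with minimap2 2.31-r1302 (at least 90% identity over at least 50% of the peak), and genes of GENCODE release 44 were read at the aligned place, since the annotation used covers chromosomes only. The 45S copies were found with blastn 2.17.0 at 95% identity. Scripts used Python 3.11.15, numpy 2.4.6, pandas 2.3.3, numba 0.67.0 and matplotlib 3.10.9, and the sequence measures were tested on simulated sequence.

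Named items were the 6 contigs with most peaks, the 3 with most list-only peaks in each list with ties kept, the widest shared and list-only peak of each kind, and up to 20 gene entries of list-only peaks by width. Contigs with unequal coverage, the ribosomal contigs and the examples of divided peaks were chosen after their values were seen. Some items that meet the rule are not reported here. Alternatives changed the overlap, the contigs counted, the score limit, the chaining of neighbouring peaks, the sequence thresholds, the word length and the gene type.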

Additional observations from a re-analysis of the deposited data

How the results depend on the processing

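Of 76 alternatives, 46 stayed within the error of the main value and 30 did not. Values are given as control and then ERCC6L2-/-. Without alternate and fix contigs there were 247 and 248 contig peaks, of which 14.6% and 8.87% were list-only. With peaks chained over gaps of at most 10 kb the lists held 404 and 357. Both counts dropped by a similar factor, and only the ERCC6L2-/- count passed the limit. Among peaks at the ceiling 8.90% and 5.78% were list-only, and with reciprocal overlap of at least 50% the ERCC6L2-/- share was 18.3%. The alpha-satellite share, 5.06% and 5.91%, became 1.48% and 1.97% in runs of at least 10 kb, 2.11% and 3.06% at 60% identity, and 12.2% and 13.3% at 40% identity with ATTCC peaks not counted. The CENP-B box share, 2.95% and 3.28%, became 1.05% and 1.53% in the central 300 bases. ATTCC satellite rose from 17.1% and 18.6% to 24.5% and 27.4% at 3 copies per 100 bases, and purine tracts dropped from 12.7% and 11.4% to 8.23% and 6.78% at 50 bases. Tandem repeats, 60.5% and 65.0%, became 83.1% and 85.6% at 50% identity and 35.0% and 38.1% at 70%. Copied peaks, 58.6% and 55.8%, became 46.4% and 43.3% with 100-base words and 36.5% and 35.2% at 90% of words. Gene overlap became 25.3% and 23.1% with protein-coding genes only. The cause of the shift among peaks at the ceiling and without alternate and fix contigs was not tested, and the other changes follow from a stricter or looser definition. The 40% alpha-satellite and both tandem settings were chosen after seeing the data, as was leaving out the contig with most peaks for the tandem share.

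No paired analysis was possible because each genotype has 1 merged list, which carries no replicate numbers. For the same reason no setting leaves out a sample. Read depth and the placing of reads among copies are unknown from these lists, which hold no copy number of these repeats.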
